A study of Mus musculus with 24 samples.

Results

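The genes followed here were 10 genes of iron handling and metal binding in hepatocytes of aged mice, namely Hamp, Hamp2, Tfrc, Tfr2, Trf, Fth1, Ftl1, Slc40a1, Mt1 and Mt2. They were chosen by name for their function, and all 10 were found among the 55421 rows of the gene tables and passed the low-count filter that kept 13847 genes. RNA had been sequenced from hepatocytes of 24 male C57BL/6J mice, isolated by perfusion of the liver. From 4 months of age the mice were given either vehicle or rapamycin, an inhibitor of the mTOR complex mTORC1, encapsulated in the food at 42 ppm (eRapa). At 18 months, 8 vehicle mice stayed on normal diet (ND + veh), while 7 vehicle mice (HFD + veh) and 9 rapamycin mice (HFD + eRapa) changed to food in which fat made up 60% of the calories, and every group was kept for 9 weeks. No group stayed on normal diet with rapamycin, so the action of the drug without the fat diet was not measured. In the text, ND + veh, HFD + veh and HFD + eRapa name these 3 groups, values are counts per 1000000 counts (CPM) unless FPKM is named, and a gene is called where its edgeR p, adjusted over all 13847 genes, was under 0.05.

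Hepatocytes are a main store of iron and set how much of it circulates. They secrete hepcidin, the product of Hamp, which binds the iron exporter ferroportin and has it degraded, so that iron stays inside cells. Cells take iron up from transferrin through transferrin receptors, store it in ferritin and adjust both through iron regulatory proteins that bind hairpins in the mRNA, while metallothioneins are small proteins that bind zinc and copper and are made when metals, glucocorticoids or inflammatory signals rise.

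Hamp and Hamp2 are neighbours on chromosome 7 (GRCm38, minus strand). Hamp lies at chr7:30942368-30944032 and Hamp2 at chr7:30922372-30924681, with 17687 bases between them. Their main annotated transcripts of 410 and 420 bases matched at 388 of 410 aligned bases (94.6%). Of the windows of 50 bases in the Hamp transcript, 60 of 361 also stood in that of Hamp2, of those of 75 bases 13 of 336 did, and of those of 100 bases none of 311 did. Reads that fall in the shared windows cannot be told apart. The read length is not given in the sources used here, so the share of such reads is not known and the counts of the pair are uncertain to that extent. The sequences before both start sites are shown because the genes parted in the results below. They are the 250 bases upstream of the RefSeq start site (GRCm38.p6, minus strand, chr7:30944030-30944279 for Hamp and chr7:30924182-30924431 for Hamp2), written in the direction of transcription. The window of Hamp2 lies inside the gene span given above, which extends further upstream than the RefSeq start site. Capitals mark GGCGCC, the core of the element through which bone morphogenetic protein (BMP) signalling acts on Hamp, and TTCNNNGAA, the palindrome read by STAT factors, both searched on both strands and not overlapping.
Hamp: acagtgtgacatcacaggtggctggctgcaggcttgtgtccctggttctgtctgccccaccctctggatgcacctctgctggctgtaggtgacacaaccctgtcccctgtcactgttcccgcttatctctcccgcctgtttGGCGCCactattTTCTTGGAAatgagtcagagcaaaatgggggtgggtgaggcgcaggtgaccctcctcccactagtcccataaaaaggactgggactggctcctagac
Hamp2: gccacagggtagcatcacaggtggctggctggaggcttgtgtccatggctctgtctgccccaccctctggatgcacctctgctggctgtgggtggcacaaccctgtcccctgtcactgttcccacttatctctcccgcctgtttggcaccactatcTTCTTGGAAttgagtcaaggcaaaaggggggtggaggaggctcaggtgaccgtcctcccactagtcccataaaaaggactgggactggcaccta
Both sequences aligned over 247 bases and were identical at 227 of them (91.9%). GGCGCC stood once before Hamp, starting 109 bases upstream, and at the aligned place Hamp2 differed by G4A, counted from the first base of the element with the base of Hamp written first. TTCNNNGAA stood once before each gene, 97 bases upstream for Hamp and 94 for Hamp2, with all 9 bases the same. Of 32851 RefSeq promoter windows of the same length, 9.59% held GGCGCC and 7.02% held TTCNNNGAA. The E-box CACGTG, found in 6.02% of the windows, was in neither. A match of letters is a description of the window and not a measured binding site.

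In 4 of the 10 genes a search of the untranslated regions found the hairpin bound by iron regulatory proteins. The matches are printed because this hairpin is the feature that the storage, export and uptake genes share. The search asked for a C bulge, 5 bases, the loop CAGTG followed by A, C or T, and 5 bases that pair with the first 5, within transcripts of the GENCODE M21 annotation. Hairpins that depart from this strict pattern would be missed. Capitals mark the loop of 6 bases.
Fth1, 5′ untranslated region: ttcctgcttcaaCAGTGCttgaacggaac
Ftl1, 5′ untranslated region: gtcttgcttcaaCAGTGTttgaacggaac
Slc40a1, 5′ untranslated region: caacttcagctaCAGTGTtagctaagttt
Tfrc, 3′ untranslated region, site 1: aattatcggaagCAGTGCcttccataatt
Tfrc, 3′ untranslated region, site 2: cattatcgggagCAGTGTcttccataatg
Tfrc, 3′ untranslated region, site 3: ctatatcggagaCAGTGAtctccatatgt
Tfrc, 3′ untranslated region, site 4: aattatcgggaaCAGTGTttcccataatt
The hairpins, from the bulge to the last paired base, lie on GRCm38 at chr19:9982738-9982754 (plus strand) in Fth1, chr7:45459785-45459801 (minus) in Ftl1 and chr1:45925471-45925487 (minus) in Slc40a1. The 4 hairpins found in Tfrc (plus strand) start at chr16:32631225-32631241 and end with chr16:32631716-32631732. Such a hairpin was found in the 5′ untranslated region of 23 of 21842 protein-coding genes (0.105%) and in the 3′ untranslated region of 100 (0.458%). As background, protein bound at the 5′ end blocks translation, whereas at the 3′ end of Tfrc it keeps the mRNA from decay, so iron supply is known to act on the mRNA level of Tfrc and mainly on the translation of the ferritins, which was not measured here.

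Libraries held between 17739252 and 25945134 counts. Hepatocyte marker genes were high throughout, with 52967 to 147550 CPM summed over 8 markers, and the median sum was 120710 CPM in ND + veh, 120690 in HFD + veh and 95185 in HFD + eRapa. On the diet none of the 8 was called higher and 1 was called lower (9.86% of all genes were), with a median log2 fold change of -0.098. None of the 8 was called between HFD + eRapa and ND + veh, and 2 were called higher (10.9% of all genes) and none lower against HFD + veh. The sum of 8 macrophage markers ran from 33.0 to 932 CPM in ND + veh (median 188), from 121 to 4388 in HFD + veh (median 2076) and from 9.42 to 744 in HFD + eRapa (median 161). All 8 macrophage markers were above 0 in every library. Of these, 3 were called higher on the diet (16.0% of all genes were) and 6 lower with rapamycin against HFD + veh (21.1% of all genes). The 5 erythroid markers summed to 38.0 to 72.0 CPM in ND + veh (median 51.7), 62.3 to 714 in HFD + veh (median 101) and 89.8 to 264 in HFD + eRapa (median 112). The 4 globin genes among them were called higher on the diet (16.0% of all genes). With rapamycin against HFD + veh 1 of the 5 was called higher (10.9% of all genes) and none lower. The globin genes Hba-a1 and Hbb-bs had medians of 0.807 and 0.882 CPM in ND + veh, a small part of the sum there. Their medians were 10.1 and 13.8 CPM in HFD + veh and 4.04 and 5.33 in HFD + eRapa. These medians were lower with rapamycin on the diet, while that of the sum was not. The sum therefore does not stand for globin RNA alone. Beside the 4 globin genes the list holds only Alas2, and the share of each gene in the sum is not given here. HFD + veh animal 6 had the highest sums of both the macrophage and the erythroid list. Markers of other cells of the liver were lower with rapamycin too. Against HFD + veh all 8 endothelial markers (median log2 fold change -1.38) and all 7 stellate cell markers (-2.22) were called lower, beside 21.1% of all genes. Against ND + veh 4 of the 7 stellate markers were (-1.63), beside 6.54% of all genes. Beside 16.0% of all genes called higher on the diet, 1 of 8 endothelial and 2 of 7 stellate markers were. So were all 3 measured cholangiocyte markers (2.37), 2 of 3 neutrophil markers (3.41) and the 1 measured lymphocyte marker (3.55). Except where a covariate is named below, the part of these cells in the results was not tested. These are bulk RNA values, in which fewer cells of a type and less RNA per cell cannot be told apart.

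On the high-fat diet 4 of the 10 genes rose and none was called lower, against 25.9% of all genes tested called in either direction (16.0% higher and 9.86% lower). None of the 10 had diet groups without overlap, as 2.4% of all genes did. Those that rose were Tfrc, Slc40a1, Mt1 and Mt2, each about 3-fold. With rapamycin on the same diet 6 of 10 were called against HFD + veh, where 32.0% of all genes were, namely Tfr2 higher (10.9% of all genes) and Hamp2, Tfrc, Slc40a1, Mt1 and Mt2 lower (21.1%). Rapamycin on the high-fat diet against ND + veh left 1 of 10 called, Hamp2, which was lower, against 13.5% of all genes (6.93% higher and 6.54% lower). Taken over the 10 genes, log2 fold changes had medians of 0.20, -0.71 and -0.13 in these 3 comparisons, beside 0.05, -0.04 and -0.03 over all genes tested. The comparisons share animals: HFD + veh enters both of the first, so a high value there makes a rise on diet and a fall with rapamycin together, and HFD + eRapa enters both of the last.

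**Figure D1:**
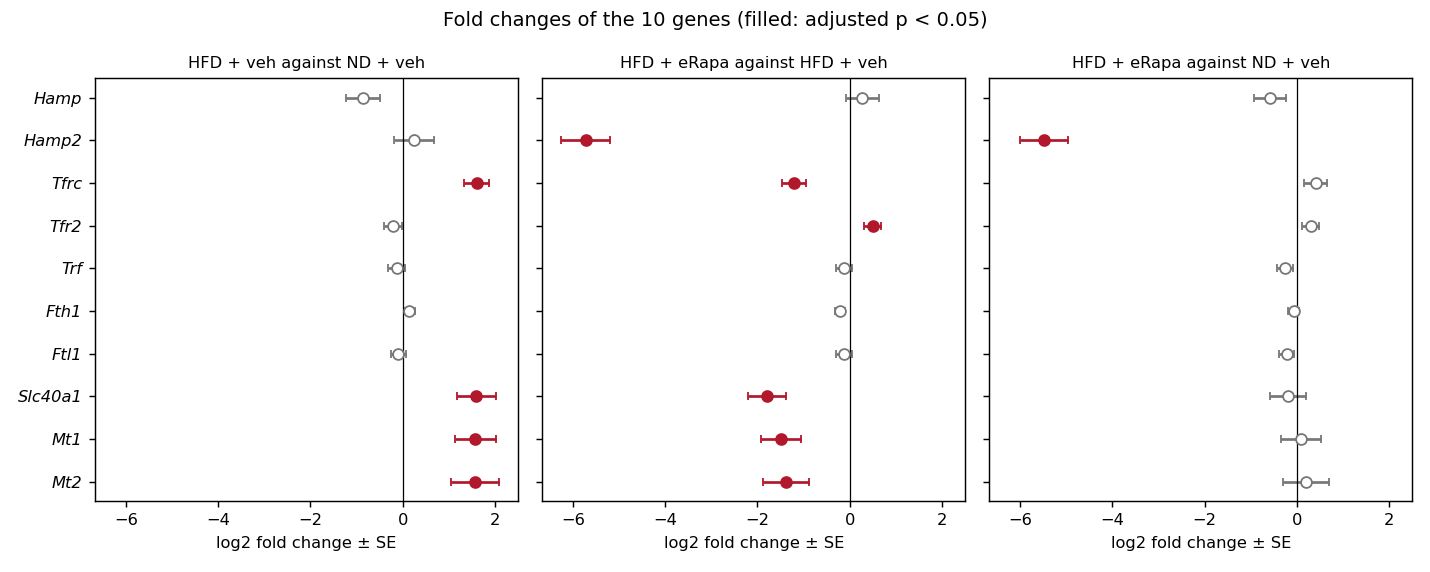
Log2 fold change (x axis) of the 10 genes (y axis) in the 3 comparisons, with bars of 1 SE and filled points where the adjusted p was under 0.05. Hamp2 stands apart at -5.73 and -5.48 in both comparisons with rapamycin, while Hamp has open points in all 3.

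Hamp2 was far lower in every rapamycin-treated animal than in any vehicle animal. This paralog of Hamp arose by duplication in the mouse, and its peptide is not known to act on ferroportin as hepcidin does. It lay between 6.19 and 80.6 CPM in ND + veh (median 27.6, 152 to 1594 counts) and between 9.74 and 102 CPM in HFD + veh (median 38.6, 207 to 2226 counts). In HFD + eRapa the 9 animals lay between 0.389 and 1.44 CPM (median 0.617, 7 to 34 counts, beside 4352 to 19022 counts of Hamp). Every treated animal was below every vehicle animal (lowest vehicle value 4.30 times the highest treated value), and the groups did not overlap in either comparison with rapamycin, as for 1.34% of all genes that lay lower without overlap against HFD + veh and 1.67% against ND + veh. The log2 fold change was -5.73 (SE 0.528, adjusted p = 6.30e-07, 52.9-fold) against HFD + veh and -5.48 (SE 0.519, adjusted p = 3.47e-07, 44.5-fold) against ND + veh, and of the 13847 genes tested none had a lower value in either comparison. Diet alone gave 0.25 (SE 0.441, adjusted p = 0.704), with overlapping groups. HFD + veh and ND + veh animals themselves spanned a wide range, and the within-group SD of log2 CPM of Hamp2 was 0.969, larger than in 88.5% of genes. Leaving out any 1 library kept the fall between -5.91 and -5.32 against HFD + veh and between -5.66 and -5.14 against ND + veh.

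Hamp itself, the hepcidin gene, did not share this fall. It ranged from 353 to 1739 CPM in ND + veh (median 1026), from 233 to 968 in HFD + veh (median 484) and from 243 to 901 in HFD + eRapa (median 579). All groups overlapped. The diet difference of -0.85 (SE 0.367, 95% interval -1.57 to -0.13, unadjusted p = 0.0297 and adjusted p = 0.0876) was not called, nor were those of rapamycin, 0.27 against HFD + veh (SE 0.355, adjusted p = 0.589) and -0.58 against ND + veh (SE 0.340, adjusted p = 0.2996). The diet difference was called without ND + veh animal 4 (-1.02, adjusted p = 0.0350) or without HFD + veh animal 1 (-1.14, adjusted p = 0.0224), the lowest Hamp of the one group and the highest of the other.

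Within each animal Hamp exceeded Hamp2 in counts, by a median factor of 37.2 in ND + veh, 9.12 in HFD + veh and 622 in HFD + eRapa. The lowest ratio under rapamycin was 372 and the highest in a vehicle animal 103. On the log2 scale the mean ratio under rapamycin was higher by 5.96 against HFD + veh (two-sided exact permutation p = 8.74e-05, adjusted over 12 ratio tests 0.000524) and by 4.76 against ND + veh (exact p = 4.11e-05, adjusted 0.000494), both the smallest p their group sizes allow. Between the vehicle groups it differed by -1.19 (exact permutation p = 0.0821, adjusted 0.164). Over animals of the same group the levels of the pair showed no detectable relation, with Pearson's r of 0.158 in ND + veh (n = 8, exact permutation p = 0.713), 0.077 in HFD + veh (n = 7, exact p = 0.875) and 0.037 in HFD + eRapa (n = 9, exact p = 0.926). Spearman's rho was -0.071, 0.071 and -0.167 in the same order (exact permutation p = 0.882, 0.906 and 0.678), and none of these passed over the family of 9 correlations. Without the pair of animals farthest from the median of Hamp, r was -0.568, 0.042 and -0.542 (exact permutation p = 0.211, 0.933 and 0.188). Usf2, the gene next to Hamp, was picked after its values were seen. It was lower on the diet (-0.59, adjusted p = 0.0311), a call lost without ND + veh animal 5 or 7 or HFD + veh animal 3, and had log2 fold changes with rapamycin of 0.40 against HFD + veh (adjusted p = 0.118) and -0.20 against ND + veh (adjusted p = 0.553).

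**Figure D2:**
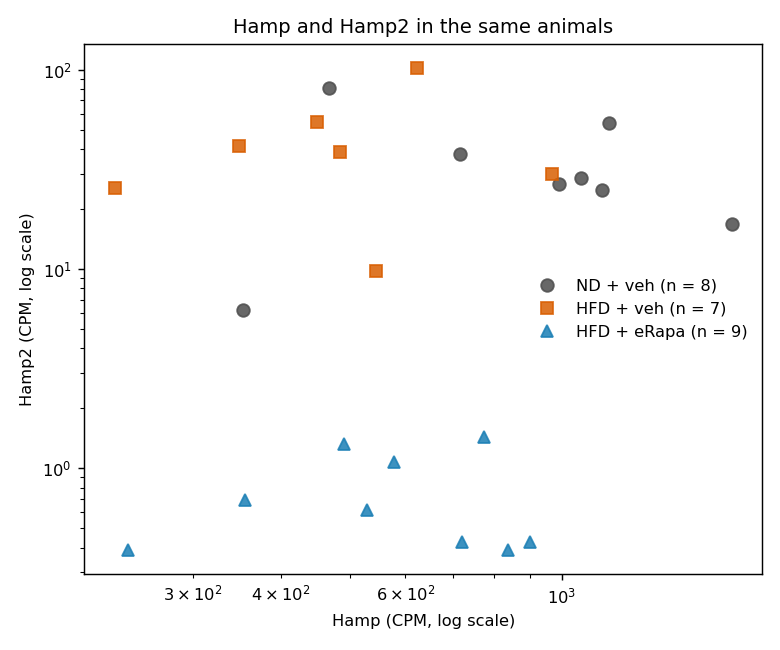
Hamp (x axis) and Hamp2 (y axis) in CPM on log scales, with 1 point per animal. The 9 HFD + eRapa animals lie at or under 1.44 CPM of Hamp2 and within the span of Hamp of the other animals.

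Genes known to switch Hamp on or off were called in both directions. Of 25 measured genes of hepcidin control, 3 were called higher and 5 lower on the diet (32.0%, beside 25.9% of all genes), with a median of -0.13. Tmprss6, the protease that removes the BMP co-receptor hemojuvelin and so lowers hepcidin, fell by 0.61 on the log2 scale (SE 0.199, adjusted p = 0.0287), and Hfe, the haemochromatosis gene, rose by 0.61 (SE 0.127, adjusted p = 0.00236). The transcription factor genes Smad9 (-2.27, SE 0.424, adjusted p = 9.52e-04), Atoh8 (-0.94, SE 0.319, adjusted p = 0.0336) and Id3 (-0.89, SE 0.254, adjusted p = 0.0150), which BMP signals are known to raise, were called lower on the diet. Of the other genes of the list that BMP signals are known to raise, Id1 (-0.31, adjusted p = 0.630), Id2 (-0.37, adjusted p = 0.167), Smad6 (-0.04, adjusted p = 0.907) and Smad7 (-0.63, adjusted p = 0.1004) were not called. Nor were the ligands Bmp6 (-0.55, adjusted p = 0.234) and Bmp2 (0.01, adjusted p = 0.987) or hemojuvelin, Hjv (-0.20, adjusted p = 0.478). With rapamycin against HFD + veh, 3 were called higher and 3 lower (24%, beside 32.0% of all genes), with Smad9 at 1.84 (SE 0.412, adjusted p = 0.00250), Tmprss6 at 0.55 (SE 0.194, adjusted p = 0.0320) and Hfe at -0.38 (SE 0.123, adjusted p = 0.0213). Against ND + veh, 1 was called higher and 3 lower (16.0%, beside 13.5% of all genes). The latter included Bmp6, the ligand made by sinusoidal endothelium that reports iron load, at -0.99 (SE 0.318, adjusted p = 0.0378), and Id3 at -0.75 (SE 0.235, adjusted p = 0.0331). Several of these calls rested on single animals. On the diet Atoh8 was not called without ND + veh animal 1, 6 or 7 or HFD + veh animal 2, 3, 4 or 6, and Tmprss6 without HFD + veh animal 3 or 4. With rapamycin against HFD + veh, Tmprss6 was not called without HFD + veh animal 3 or 4 or HFD + eRapa animal 5 or 6, and Hfe without HFD + veh animal 3, 4 or 6 (-0.25 without the last). Against ND + veh, Bmp6 was not called without ND + veh animal 4, 6, 7 or 8 or HFD + eRapa animal 4, 5, 6, 8 or 9, and Id3 without ND + veh animal 1 or 8 or HFD + eRapa animal 2, 3, 4, 6, 7 or 9. Regulators given above for the diet only also had lower medians with rapamycin in part. Bmp2 had medians of 16.9 CPM in ND + veh, 21.2 in HFD + veh and 9.33 in HFD + eRapa, and Id1 of 15.1, 9.50 and 7.22. Those of Hjv were 95.9, 94.4 and 99.6, and those of Smad7 18.4, 13.4 and 14.7. All groups of these genes overlapped. The endothelial marker sum had medians of 261 CPM in ND + veh, 455 in HFD + veh and 166 in HFD + eRapa, and its part in the Bmp6 and Bmp2 values was not tested.

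Tfrc, the receptor that brings transferrin-bound iron into most cells, rose on the diet and was lower with rapamycin. It lay between 13.3 and 43.8 CPM in ND + veh (median 21.5), between 39.0 and 174 in HFD + veh (median 64.6) and between 20.4 and 53.2 in HFD + eRapa (median 28.6). The diet groups met only at their edges, with 2 ND + veh animals above the lowest HFD + veh animal, and HFD + veh animal 6 was the highest of all. Tfrc was 3.05-fold higher on the diet (log2 1.61, SE 0.268, adjusted p = 3.55e-04) and 2.30-fold lower with rapamycin against HFD + veh (-1.20, SE 0.257, adjusted p = 0.00183). Against ND + veh the rapamycin group differed by 0.41 (SE 0.251, 95% interval -0.08 to 0.90, adjusted p = 0.320). The rise remained called without HFD + veh animal 6 (1.25, adjusted p = 8.80e-04) and with the mean score of 12 immune markers as a covariate (1.40, adjusted p = 0.00474). It was not called with the erythroid sum as a covariate (1.00, adjusted p = 0.0678), chosen after the data were seen, which moved with the diet as given above. The fall with rapamycin was not called with the immune score (-0.98, adjusted p = 0.0669). This score moved with the groups as well. In HFD + veh every animal except animals 1 and 2 scored at least 0.793. The highest score was 0.644 in ND + veh and 0.699 in HFD + eRapa. A call lost with this covariate therefore does not tell immune cell content apart from the diet or the drug.

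Tfr2, the transferrin receptor of hepatocytes that senses iron for hepcidin and in which the search found no such hairpin, lay between 313 and 461 CPM in ND + veh (median 427), between 166 and 506 in HFD + veh (median 337) and between 397 and 575 in HFD + eRapa (median 496). HFD + veh spread widest and included the lowest value, animal 6. The diet difference of -0.20 (SE 0.191, adjusted p = 0.446) was not called. Against HFD + veh the rapamycin group was 1.42-fold higher (0.50, SE 0.187, adjusted p = 0.0422), a call that was lost without HFD + veh animal 6 (0.38, adjusted p = 0.0873), and also without HFD + veh animal 3, 4 or 5 or HFD + eRapa animal 1, 3, 5, 6, 7, 8 or 9, with values from 0.38 to 0.65 over all single removals. It was also not called with the immune score as a covariate (0.20, adjusted p = 0.539), with only the groups compared (0.51, adjusted p = 0.0827) or without a filter (0.54, adjusted p = 0.0521). Against ND + veh it differed by 0.30 (SE 0.179, adjusted p = 0.304). The ratio of Tfrc to Tfr2 within animals had medians of 0.0502 in ND + veh, 0.158 in HFD + veh and 0.0582 in HFD + eRapa, and reached 1.05 in HFD + veh animal 6. Its log2 mean was higher by 1.87 on the diet (exact permutation p = 0.00109, adjusted 0.00326) and lower with rapamycin (-1.73 against HFD + veh, exact permutation p = 2.62e-04, adjusted 0.00105), with a difference of 0.14 between HFD + eRapa and ND + veh (exact permutation p = 0.577, adjusted 0.629).

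Trf encodes transferrin, the iron carrier of blood plasma, and was the most abundant of the 10 genes in every group. It lay between 13797 and 20400 CPM in ND + veh (median 18495), 9630 and 24956 in HFD + veh (median 16223) and 12312 and 16254 in HFD + eRapa (median 14631). The groups overlapped, HFD + veh spanning the others. None of its differences was called, at -0.13 (SE 0.188) on the diet, -0.12 (SE 0.182) for rapamycin against HFD + veh and -0.25 (SE 0.176) against ND + veh, with adjusted p of 0.642, 0.639 and 0.399.

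Neither ferritin gene was called in any comparison. Fth1, the heavy chain that oxidises iron, lay between 1129 and 1898 CPM in ND + veh (median 1369.9), 1258 and 1793 in HFD + veh (median 1589) and 953 and 1512 in HFD + eRapa (median 1239.7). Its within-group SD of log2 CPM, 0.211, was the smallest of the 10 genes and below the 0.376 that was the median over all genes. Ftl1, the light chain that lines the iron core, lay between 2602 and 4486 CPM (median 3131), 1754 and 4031 (median 3039) and 1563 and 3373 (median 2685) in the same order of groups. All groups of both genes overlapped and none of the 6 differences was called. They ran from -0.22 to 0.14, and their 95% intervals stayed within -0.53 and 0.38, so a difference of 1 log2 unit of either mRNA lies outside them. Within animals the ratio of Ftl1 to Fth1 had medians of 2.38, 2.04 and 2.14, and its log2 mean was lower on the diet by 0.26 (-0.264, exact permutation p = 0.0159, adjusted 0.0380). This last call was lost when any of 11 of the 15 single animals was left out (ND + veh animals 1, 2, 3, 4, 6, 7 and 8 and HFD + veh animals 3, 4, 5 and 6, with -0.182 without the last), or when FPKM replaced counts (-0.215).

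Slc40a1, which encodes ferroportin, the only known iron exporter of mammalian cells and the target of hepcidin, rose on the diet and was lower with rapamycin, as were several macrophage markers. It lay between 70.3 and 249 CPM in ND + veh (median 121), between 119.6 and 1403 in HFD + veh (median 326) and between 67.8 and 221 in HFD + eRapa (median 99.0). HFD + veh animal 6 held the value of 1403, 2.98 times that of the next animal, and 3 of the 7 HFD + veh animals lay within the range of ND + veh. The gene was 3.04-fold higher on the diet (1.60, SE 0.423, adjusted p = 0.0104) and 3.45-fold lower with rapamycin against HFD + veh (-1.79, SE 0.409, adjusted p = 0.00295), and differed by -0.18 from ND + veh (SE 0.393, adjusted p = 0.831). Without HFD + veh animal 6 the rise was 0.90 and not called (adjusted p = 0.0703), while the fall of -1.09 was (adjusted p = 0.0215).

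Kupffer cells, the macrophages of the liver, recycle iron from red cells and are known to hold much ferroportin. Within each group Slc40a1 followed the sum of the 8 macrophage markers, with Pearson's r of log2 values of 0.922 in ND + veh (n = 8, exact permutation p = 0.00176, adjusted 0.00396), 0.900 in HFD + veh (n = 7, exact p = 3.97e-04, adjusted 0.00179) and 0.884 in HFD + eRapa (n = 9, exact p = 0.00143, adjusted 0.00396). Spearman's rho was 0.881 (exact permutation p = 0.00724, adjusted 0.0130), 1.00 (exact p = 3.97e-04, adjusted 0.00179) and 0.883 (exact p = 0.00308, adjusted 0.00923). Without the pair of animals farthest from the median marker sum, r was 0.870 (exact permutation p = 0.0278), 0.894 (exact p = 0.0583) and 0.923 (exact p = 0.00139). With the immune score as a covariate, which moved with the groups as given above, neither difference was called. The values were 0.49 on the diet (adjusted p = 0.313) and -0.48 with rapamycin (adjusted p = 0.373). The share of Slc40a1 RNA that came from hepatocytes was not measured. With the erythroid sum as a covariate the diet difference was -0.09 (adjusted p = 0.933), that of rapamycin against HFD + veh -1.24 (adjusted p = 5.26e-04) and that against ND + veh -1.33 (adjusted p = 0.00115). The erythroid sum was at most 72.0 CPM in ND + veh and at least 89.8 in HFD + eRapa, without overlap. The last value is therefore an extrapolation and does not show that Slc40a1 was lower than in ND + veh. In HFD + veh every animal except animal 2 (62.3 CPM) had an erythroid sum of at least 85.5 CPM. The diet value with this covariate therefore does not tell the erythroid sum apart from the diet.

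Mt1 and Mt2, the metallothioneins of the liver, rose about equally on the diet and were lower with rapamycin. Mt1 lay between 1.85 and 12.3 CPM in ND + veh (median 4.63), between 4.13 and 30.6 in HFD + veh (median 15.1) and between 2.33 and 11.3 in HFD + eRapa (median 3.71). Mt2 lay between 0.354 and 3.94 CPM in ND + veh (median 1.52), between 0.975 and 10.2 in HFD + veh (median 5.84) and between 0.777 and 5.08 in HFD + eRapa (median 1.57). Above every ND + veh animal lay 4 of the 7 HFD + veh animals for Mt1 and 5 for Mt2, and HFD + veh animals 1 and 2, the lowest of their group for both genes, also had the lowest macrophage marker sums of that group. Mt2 rested on 7 to 221 counts a library.

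Mt1 was 2.99-fold higher on the diet (1.58, SE 0.454, adjusted p = 0.0159) and 2.81-fold lower with rapamycin against HFD + veh (-1.49, SE 0.437, adjusted p = 0.0123). Mt2 was 2.97-fold higher (1.57, SE 0.522, adjusted p = 0.0305) and 2.59-fold lower (-1.37, SE 0.501, adjusted p = 0.0389). The rise of Mt2 was not called without ND + veh animal 1, 2, 5 or 7 or HFD + veh animal 3, 4 or 6 (range over single removals 1.37 to 1.86). Its fall was not called without ND + veh animal 4, HFD + veh animal 3, 4, 5, 6 or 7 or HFD + eRapa animal 1, 3, 5, 6, 8 or 9 (-1.64 to -1.17). Neither differed detectably between HFD + eRapa and ND + veh, at 0.09 (95% interval -0.74 to 0.93) and 0.20 (95% interval -0.77 to 1.16). The ratio of Mt1 to Mt2 within animals had medians of 3.42, 2.99 and 2.65 in ND + veh, HFD + veh and HFD + eRapa, with exact permutation p of 0.783, 0.341 and 0.200 for its 3 comparisons. The genes moved together within groups, with Pearson's r of log2 values of 0.938 in ND + veh (n = 8, exact permutation p = 0.00241, adjusted 0.00433), 0.929 in HFD + veh (n = 7, exact p = 0.00377, adjusted 0.00565) and 0.921 in HFD + eRapa (n = 9, exact p = 3.25e-04, adjusted 0.00179). Spearman's rho was 0.905 (exact permutation p = 0.00456, adjusted 0.0103), 0.750 (exact p = 0.0663, adjusted 0.0994) and 0.967 (exact p = 1.65e-04, adjusted 0.00149). Without the pair of animals farthest from the median of Mt1, r was 0.963, 0.552 and 0.890 (exact permutation p = 0.00694, 0.292 and 0.00377), and the call in HFD + veh, where 5 animals were left, rested on those animals. The main transcripts of the pair matched at 69.9% of aligned bases and shared no window of 50 bases, and the genes lie 5514 bases apart on chromosome 8 (GRCm38, plus strand), Mt2 at chr8:94172664-94173568 and Mt1 at chr8:94179082-94180327.

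With the immune score as a covariate, which moved with the groups as given above, neither metallothionein was called. Mt1 was at 0.53 on the diet (adjusted p = 0.337) and -0.33 with rapamycin (adjusted p = 0.609), and Mt2 at 0.44 (adjusted p = 0.616) and -0.09 (adjusted p = 0.941). With the erythroid sum as a covariate, which moved with the diet as given above, neither was called on the diet. Mt1 was at 1.06 (adjusted p = 0.395) and Mt2 at 0.69 (adjusted p = 0.688), values that do not tell the sum apart from the diet. With rapamycin against HFD + veh and the same covariate, Mt1 was called (-1.38, adjusted p = 0.0200) and Mt2 was not (-1.14, adjusted p = 0.0757). Mtf1, the zinc-sensing factor that switches them on, stayed within 12.4 and 21.1 CPM over all libraries, with log2 differences from -0.02 to 0.09, none called. Slc30a1, the zinc exporter that the same factor is known to control, was not called on the diet (0.06, adjusted p = 0.834) and was lower with rapamycin against HFD + veh (-0.47, SE 0.178, adjusted p = 0.0468), a call lost in 14 of 24 removals of a single animal (ND + veh animals 1, 3 and 5, HFD + veh animals 1, 2, 3, 4 and 6, and HFD + eRapa animals 1 to 6). Of 9 genes that respond to glucocorticoids, 1 was called on the diet (11.1%, beside 25.9% of all genes). This was Fkbp5 (0.77, SE 0.248, adjusted p = 0.0271), which was not called without ND + veh animal 2, 4 or 5 or HFD + veh animal 6.

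**Figure D3:**
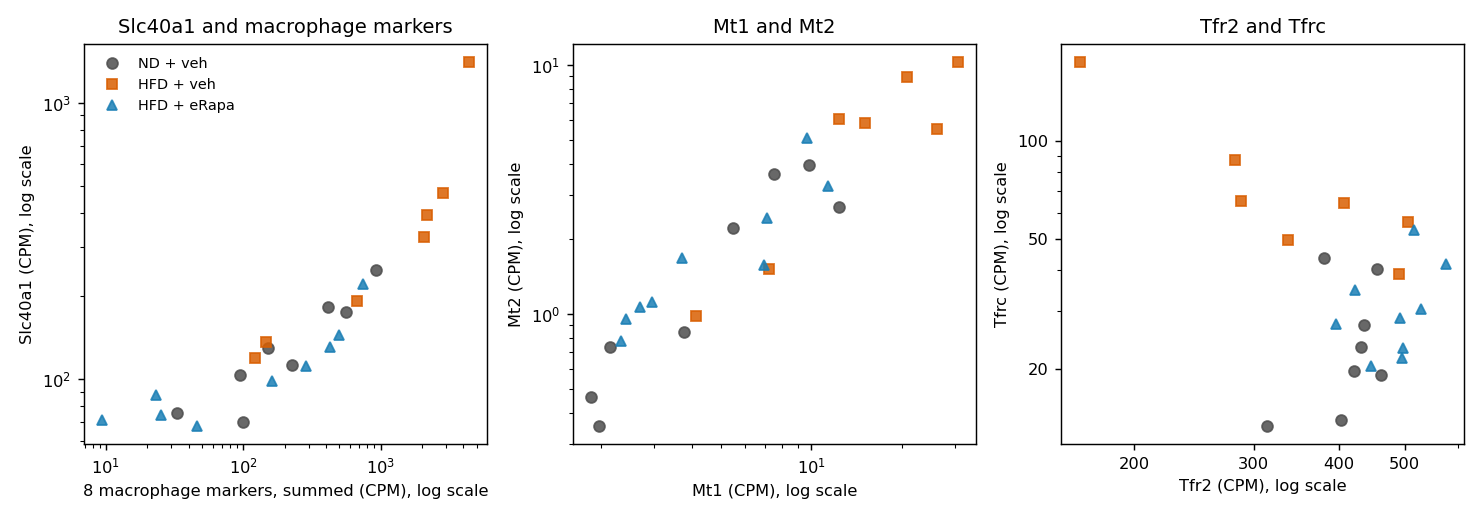
Levels in CPM on log scales, with 1 point per animal: Slc40a1 against the summed macrophage markers, Mt2 against Mt1, and Tfrc against Tfr2. HFD + veh animal 6 lies at the edge of the panels of Slc40a1 and of Tfrc, with 1403 CPM of Slc40a1 and with 174 CPM of Tfrc beside 166 CPM of Tfr2.

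**Figure D4:**
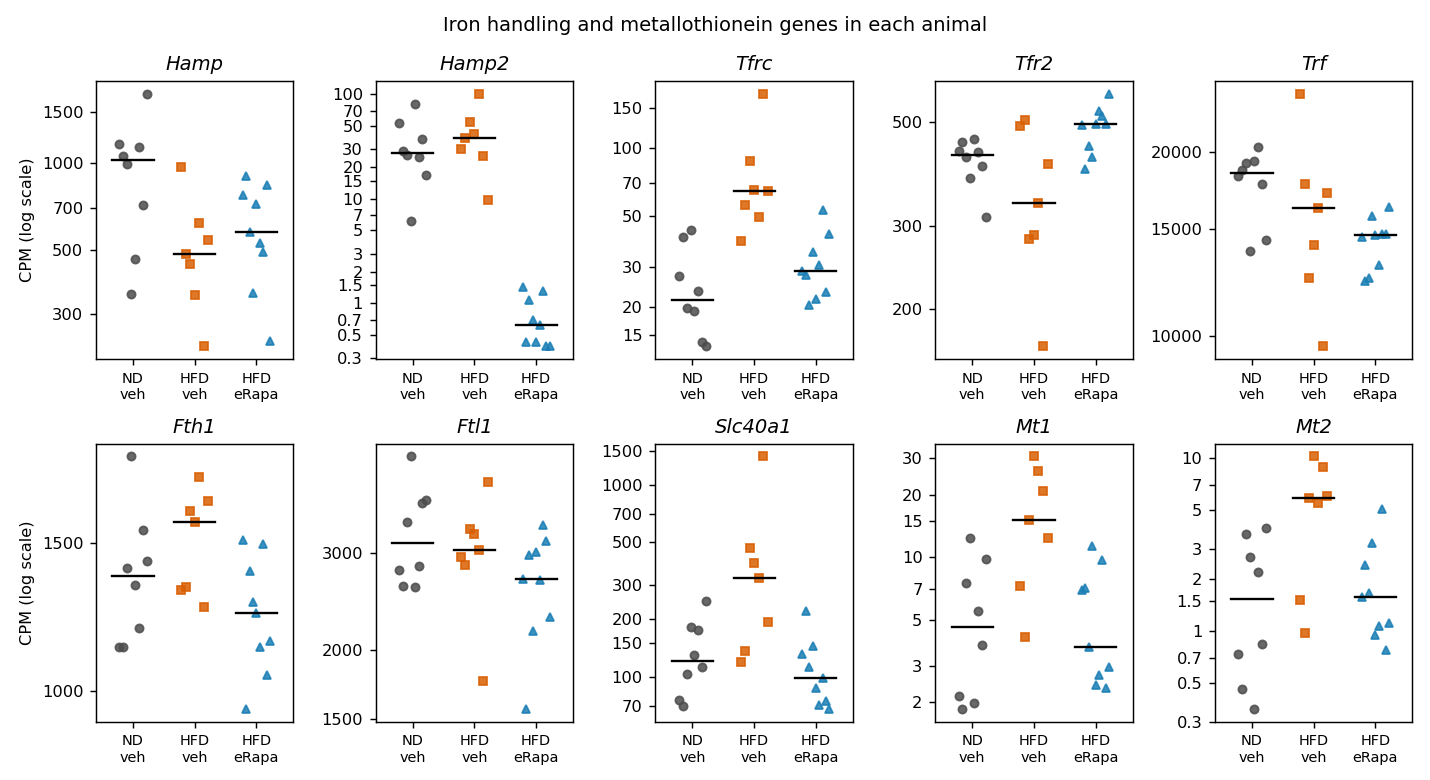
CPM (log axes, which differ between panels) of each of the 10 genes in ND + veh (circles, n = 8), HFD + veh (squares, n = 7) and HFD + eRapa (triangles, n = 9), with lines at the group medians. The rapamycin animals separate from both other groups in the panel of Hamp2 and overlap with them in the other 9.

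Levels can be set against each other per length of gene, as FPKM. In ND + veh the median FPKM fell from Trf (9765) through Hamp (7528), Ftl1 (4598), Fth1 (2166), Hamp2 (194), Tfr2 (141), Slc40a1 (35.7), Mt1 (15.6) and Mt2 (6.70) to Tfrc (4.63). Neighbours whose ranges did not overlap were Ftl1 and Fth1, Fth1 and Hamp2, and Tfr2 and Slc40a1. The ranges of the others overlapped. Within animals, Slc40a1 exceeded Mt1, and Mt1 exceeded Mt2, in 8 of 8. Trf exceeded Hamp in 7, Hamp exceeded Ftl1 in 6, Hamp2 exceeded Tfr2 in 7 and Mt2 exceeded Tfrc in 5 of the 8 animals. HFD + veh kept Hamp2 in the fifth place (248 FPKM) and placed Hamp (3801) after Ftl1 (4382), with overlapping ranges. In HFD + eRapa Hamp2 was the last of the 10, at 4.58 FPKM, after Tfrc at 5.85, and 7 of the 9 animals had more Tfrc than Hamp2 per length. Hamp in the same animals was second at 4471 FPKM.

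Once the group means were removed, the genes that followed Hamp most closely over the 24 libraries were Rbp4 (Pearson's r 0.832), the retinol carrier of plasma, C8g (0.823), a complement component, and Mrpl55 (0.822), a mitochondrial ribosomal protein gene. Those closest to Slc40a1 were Rap1b (0.955), Smpdl3a (0.955) and Ifngr1 (0.952), the last the receptor chain for interferon gamma. Mt1 was followed by Klf6 (0.877), Vim (0.863), which encodes the filament protein of mesenchymal and immune cells, and Tmem176b (0.858). Tfrc had lower values, with Gnptab (0.769), Exoc2 (0.757) and Zc3h7a (0.749). These are descriptions over 7830 genes, and the points share libraries and their cell makeup.

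Beyond the 10 genes, 133 measured genes of 8 lists on metal and haem biology and their signals were called in 30.8% of cases on the diet (24 higher, 17 lower), 33.1% with rapamycin against HFD + veh (24 higher, 20 lower) and 17.3% with rapamycin against ND + veh (14 higher, 9 lower), beside 25.9%, 32.0% and 13.5% of all genes. Of 19 measured genes of haem synthesis and breakdown, 6 were lower and 2 higher on the diet (42.1%, beside 25.9% of all genes, median -0.31). Among them, the synthesis enzymes Alad (-0.72, SE 0.170, adjusted p = 0.00524) and Cpox (-0.67, SE 0.191, adjusted p = 0.0152) were lower, while Blvra, which turns biliverdin into bilirubin, rose (1.16, SE 0.262, adjusted p = 0.00399). With rapamycin against HFD + veh 8 were higher and 4 lower (63.2%, beside 32.0% of all genes, median 0.27). Cpox was at 1.03 (SE 0.189, adjusted p = 5.56e-04) and Blvra at -1.06 (SE 0.253, adjusted p = 0.00372). Hmox1, the enzyme that opens the haem ring and that macrophages hold in quantity, was at -1.92 (SE 0.653, adjusted p = 0.0280), a call lost without HFD + veh animal 3, 4 or 6 (-1.52 without the last). Against ND + veh 1 was called (5.26%, beside 13.5% of all genes), Abcg2 (0.84, SE 0.187, adjusted p = 0.00344).

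The plasma carriers of free haem and free haemoglobin rose on the diet. Of 13 measured genes of uptake, export and haem scavenging, 4 were higher and 1 lower (38.5%, beside 25.9% of all genes, median 0.62). Hpx, which carries free haem, rose by 1.03 (SE 0.217, adjusted p = 0.00244) and Hp, which carries free haemoglobin, by 0.76 (SE 0.157, adjusted p = 0.00216), together with Steap4, a metalloreductase (0.97, SE 0.160, adjusted p = 3.30e-04). Slc11a2, the divalent metal transporter, fell by 0.37 (SE 0.104, adjusted p = 0.0135). Steap4 and Hp also rose in HFD + eRapa against ND + veh, at 0.98 (adjusted p = 9.45e-05) and 0.98 (adjusted p = 8.33e-05), and neither was called between HFD + eRapa and HFD + veh (0.02 and 0.22, adjusted p = 0.947 and 0.288). Hpx was called in neither, at 0.50 against ND + veh (adjusted p = 0.1101) and -0.53 against HFD + veh (adjusted p = 0.0563). The list had none higher and 3 lower with rapamycin against HFD + veh (23.1%, beside 32.0% of all genes), and 2 higher and 2 lower against ND + veh (30.8%, beside 13.5%).

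Of the proteins that sense iron, Aco1 and Ireb2, the iron regulatory proteins that bind the hairpins above, were not called on the diet (-0.04 and 0.10), and Aco1 was higher with rapamycin against HFD + veh (0.30, SE 0.103, adjusted p = 0.0262), though not called without HFD + veh animal 3, 4 or 6. The list of ferritin turnover and iron sensing held 1 called gene of 8 on the diet (12.5%, beside 25.9% of all genes) and 2 with rapamycin against HFD + veh (25.0%, beside 32.0%). Of 17 mitochondrial genes, 5 were higher and none lower with rapamycin against HFD + veh (29.4%, beside 32.0% of all genes, 10.9% higher). Among them were Iba57 (0.90, SE 0.173, adjusted p = 8.32e-04) and Glrx5 (0.65, SE 0.180, adjusted p = 0.00871), which take part in building iron-sulfur clusters.

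Among 26 genes of zinc and copper handling, 3 rose and 3 fell on the diet (23.1%, beside 25.9% of all genes), and 5 rose and 5 fell with rapamycin against HFD + veh (38.5%, beside 32.0%). Slc39a4, a zinc importer, lay between 6.02 and 55.7 CPM in ND + veh (median 11.7), between 27.7 and 75.6 in HFD + veh (median 41.5) and between 0.666 and 10.2 in HFD + eRapa (median 2.36). No treated animal reached the lowest HFD + veh animal, as for 1.34% of all genes that lay lower without overlap. It was higher on the diet (1.43, SE 0.470, adjusted p = 0.0294, not called without ND + veh animal 1, 2, 5 or 7 or HFD + veh animal 4) and lower with rapamycin, at -3.56 against HFD + veh (SE 0.488, adjusted p = 4.25e-05) and -2.12 against ND + veh (SE 0.461, adjusted p = 0.00293).

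The acute phase list had 9 of 16 genes higher and none lower on the diet (56.25%, beside 25.9% of all genes), 6 higher and none lower in HFD + eRapa against ND + veh (37.5%, beside 13.5%), and 1 higher and 3 lower in HFD + eRapa against HFD + veh (25.0%, beside 32.0%). Lcn2, the siderophore-binding protein that withholds iron from bacteria, had medians of 4.69 CPM in ND + veh, 59.5 in HFD + veh and 44.7 in HFD + eRapa, with log2 differences of 3.15 (SE 0.559, adjusted p = 6.49e-04) on the diet and 2.79 (SE 0.536, adjusted p = 9.76e-04) for HFD + eRapa against ND + veh (3.40 without ND + veh animal 4), and -0.36 (adjusted p = 0.621) for rapamycin against HFD + veh. Saa1 and Saa2, near-identical serum amyloid genes whose counts can share reads, were called higher in HFD + eRapa against ND + veh, as 6.93% of all genes were. Their values were 3.14 (SE 0.549, adjusted p = 3.99e-04) and 3.04 (SE 0.457, adjusted p = 7.89e-05). Saa1 had medians of 18.8 CPM in ND + veh, 76.1 in HFD + veh and 86.4 in HFD + eRapa, where HFD + eRapa animal 2 reached 810. Without that animal the differences from ND + veh were 2.05 (adjusted p = 2.47e-05) for Saa1 and 2.41 (adjusted p = 2.49e-05) for Saa2.

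**Figure D5:**
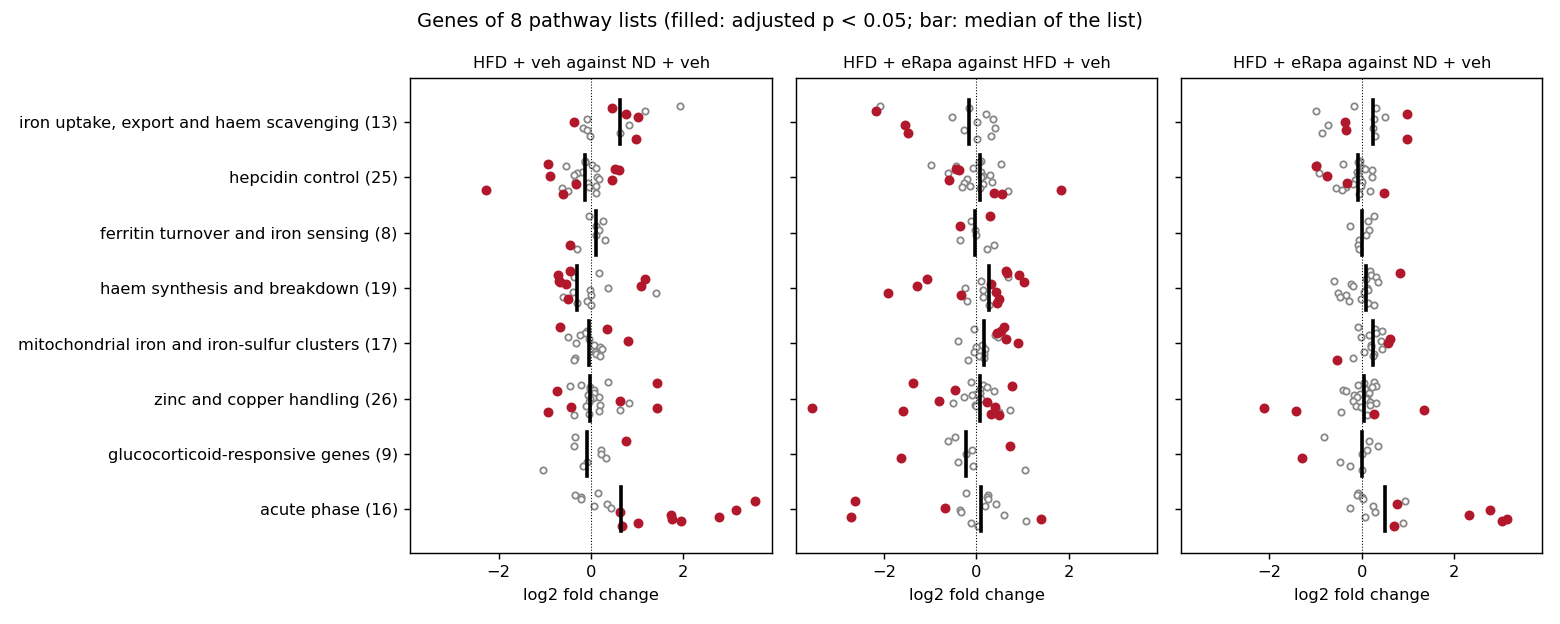
Log2 fold change (x axis) of each measured gene of the 8 lists (y axis, with the number measured) in the 3 comparisons, filled where the adjusted p was under 0.05, with bars at list medians. Hepcidin control and haem genes lie on both sides of 0, and the acute phase genes called lie above 0 on the diet and against ND + veh.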

How the data were processed

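Poly(A) RNA was sequenced from perfused, Percoll-purified hepatocytes of 24 mice with 1 batch label. Reads had been mapped to mm10 (Gencode annotation) using STAR, filtered using SAMtools 1.1.0 and assigned to genes using HTSeq 0.11.2. The deposited counts are raw whole reads per gene as the authors made them, without normalization. The deposited FPKM table holds Cufflinks estimates that the authors computed from those alignments. Strand use in counting is not given in the sources used here, so overlapping and antisense genes are uncertain, as are the copies Hamp and Hamp2, Saa1 and Saa2, and the ferritin genes with their pseudogenes.

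Groups and replicate numbers came from the labels. Counts of all 24 libraries and 3 groups entered a single edgeR 4.0.16 fit in R 4.3.3 (filterByExpr, TMM, robust quasi-likelihood test, Benjamini-Hochberg adjustment over 13847 genes, called at adjusted p under 0.05). SE is the absolute log2 fold change over the square root of F, and 95% intervals are 1.96 SE each way. CPM is counts over the library total, and log2 CPM used a prior count of 2. Within-animal ratios and within-group correlations were tested with two-sided exact permutations, adjusted over 12 and 9 tests. Libraries of a group differed by more than sampling noise (chi-square per degree of freedom at least 11.3). Replicate numbers belong to different animals.

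Alternatives were DESeq2 1.42.0, DESeq2 size factors, limma 3.58.1 (voom on counts, or log2(FPKM + 1) and log2(FPKM + 0.1)), other filters, only the groups compared, the replicate number as a block, an immune score as a covariate (12 of 19 listed macrophage, lymphocyte and neutrophil markers passed the filter) and each library left out. The erythroid covariate and the removal of 3 libraries together were added after the data were seen. The members, gene lists and tests were chosen with earlier results of these data known. The genes named were all members, up to 4 called genes of mean log2 CPM of at least 1 per list and comparison by size of change, fixed regulators of the members, and the 3 genes closest in pattern to Hamp, Tfrc, Slc40a1 and Mt1. The code was tested on simulated counts. Genes were placed with GENCODE M21 (GRCm38, the assembly of mm10), in which all 10 identifiers matched, and promoters came from RefSeq (GRCm38.p6).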

Additional observations from a re-analysis of the deposited data

Results flagged for a closer look

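Among 42 groups of values tested for a library far from the rest, 2 were marked, and chance marks about 2.1. Ftl1 in HFD + veh animal 6 stood at 10.78 on the log2 CPM scale, while the nearest of the other 6 animals was at 11.48. This animal also had the lowest Hamp, Tfr2 and Trf of its group and the highest Tfrc, Slc40a1 and macrophage marker sum. The log2 ratio of Ftl1 to Fth1 in ND + veh animal 5 was 0.960, and the nearest of the other animals of that group was at 1.21.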

How the results depend on the processing

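The fall of Hamp2 with rapamycin was called under every alternative in which it was tested. It could not be tested with a minimum of 10 counts in every library, which removed Hamp2 and Mt2 and left 0 of 8 members called between HFD + eRapa and ND + veh. Of the 4 members called on the diet, 1 remained with the immune score, 1 with log2(FPKM + 1) and no filter, and 0 with the erythroid covariate, under which Slc40a1 changed sign to -0.092. Leaving out single libraries gave 2 to 5, the lowest without HFD + veh animal 6. Of the 6 called with rapamycin against HFD + veh, 1 remained with the immune score, and single removals gave 4 to 6. Against ND + veh the count was 1 in the main fit, 2 with only the groups compared and 3 with the erythroid covariate. The erythroid sums of HFD + eRapa and ND + veh did not overlap, so that last count rests on extrapolation. The immune score also moved with the groups, and the erythroid sum with the diet, as given above. Calls lost with either covariate therefore do not tell it apart from the groups.

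Pathway genes called on the diet numbered 41, and 22 with voom, 24 without a filter, 16 with the immune score, 23 with unfiltered log2(FPKM + 1), 7 with the erythroid covariate, and 25 to 48 with single removals (lowest without ND + veh animal 1, 26, and HFD + veh animal 6, 25). With rapamycin against HFD + veh 44 became 27 with the replicate block, 15 with the immune score, 24 with unfiltered log2(FPKM + 1), and 28 to 51 with single removals (28 without HFD + veh animal 3 or 6). Against ND + veh 23 became 14 with unfiltered log2(FPKM + 1) and 54 with the erythroid covariate. The last number rests on the same extrapolation. The 7 called on the diet with the erythroid covariate are limited too, because the erythroid sum moved with the diet.

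The replicate number is shared between groups only as a number. Deviations of same-numbered libraries correlated at 0.316 on average on the diet (-0.360 to 0.726), -0.245 with rapamycin against HFD + veh (-0.659 to 0.495) and -0.203 against ND + veh (-0.518 to 0.367). With the replicate block Mt1 (-1.34) and Mt2 (-1.17) were not called with rapamycin against HFD + veh, and the log2 ratio of Ftl1 to Fth1 on the diet was -0.242 and not called. That ratio was also not called with FPKM (-0.215), and single removals gave -0.312 to -0.182. The log2 ratio of Hamp to Hamp2 on the diet was called without ND + veh animal 5 only (-1.54), with a range of -1.54 to -0.945. Without the farthest pair of animals, r lost its call for Mt1 with Mt2 in HFD + veh (0.552) and, after adjustment, for Slc40a1 with macrophage markers in ND + veh (0.870) and HFD + veh (0.894). The cause of these changes was not tested. Mt2 and, under rapamycin, Hamp2 rest on few counts, which limits the precision of their levels.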
